A study of Mus musculus with 2 samples.

Results

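Heparan sulfate proteoglycans are proteins of the cell surface and basement membrane that carry long sulfated sugar chains, and hyaluronan is a related sugar polymer that is made without a core protein. The expression of 46 genes for core proteins, chain-building and chain-trimming enzymes, matrix proteoglycans, and hyaluronan synthases and receptors was described in embryonic mouse kidney. The genes were taken from a list of symbols and not by a rule on their level, though earlier results of these data were known at that point. All 46 matched 1 gene each among the 43346 mouse genes of the deposited tables, 21474 of which are annotated as protein-coding.

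Heparan sulfate is built on a short linkage of xylose, galactose and glucuronic acid, lengthened by the exostosins, and then edited by deacetylation, epimerisation and sulfation at several positions. The pattern of sulfates sets which growth factors the chain can hold, and extracellular sulfatases can change it after the chain has reached the cell surface. In the developing kidney, heparan sulfate is known to be needed for branching of the ureteric bud and for growth factor signalling between the bud and the mesenchyme around it.

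The only group was embryonic kidney: whole kidneys of B6NCrl mice at embryonic day 15.5, with male and female embryos pooled and no stated genetic change or treatment. Replicate 1 was a pool of kidneys from 78 embryos and replicate 2 a pool from 62, each sequenced as total RNA from 10 ng with ERCC spike-in RNAs added. The libraries held 36244861 and 39415002 expected counts, of which 2.60% and 3.32% were spike-ins. Each level is a TPM, an abundance relative to all transcripts and adjusted for length, given for replicate 1 and then replicate 2, with the mean ± SD where it helps. With 2 libraries of 1 group there is no test between conditions, and no p-value is given. The libraries were not copies of each other, since the chi-square of their counts over 19818 genes was 11.4 per degree of freedom. In whole tissue, fewer cells of a type and less RNA per cell cannot be told apart. Defining genes of kidney were present in both libraries: the 4 nephron progenitor genes summed to 245 and 239 TPM, the 5 podocyte genes to 126 and 137 TPM, and the 5 ureteric epithelium genes to 465 and 426 TPM. Genes of tissues next to the kidney were also present, with skeletal muscle genes at 363 and 201 TPM and adrenal cortex genes at 36.8 and 122 TPM.

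In both libraries, 41 of the 46 genes (89.1%) reached 1 TPM, beside 62.3% of all protein-coding genes. Of the 46, 30 reached 10 TPM in both libraries, and 3 genes (Gpc3, Dcn and Sdc4) reached 100 TPM. The median over the 46 genes was 16.9 and 18.02 TPM, beside 5.13 and 5.34 TPM over all protein-coding genes. Among genes that reached 1 TPM the medians lay close together, at 18.3 and 21.5 TPM for the listed genes and 19.4 and 19.5 TPM for all protein-coding genes. Summed, the 46 genes held 0.255% and 0.277% of the TPM of all protein-coding genes, and Gpc3 alone made up 36.2% and 34.9% of that sum.

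**Figure D1:**
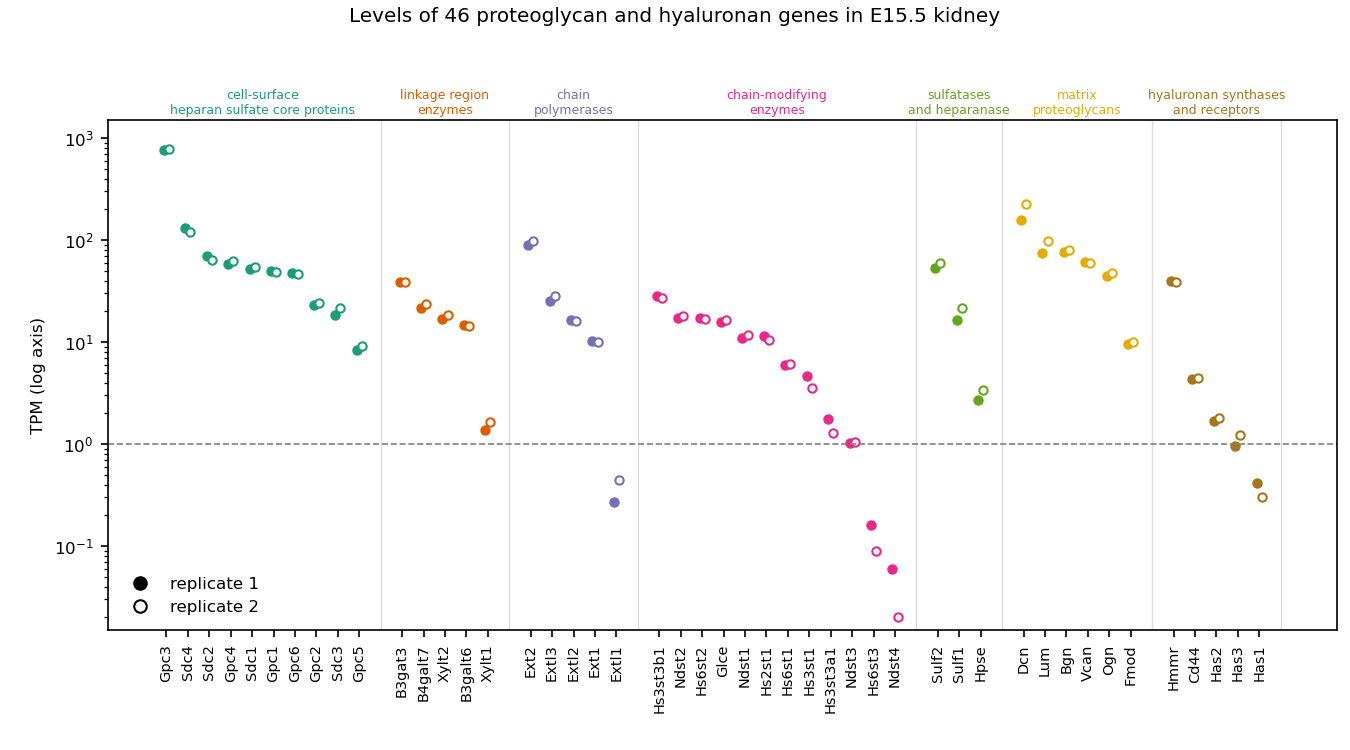
TPM of each of the 46 genes (log axis) in replicate 1 (filled) and replicate 2 (open), grouped by role and ordered by mean level within each role, with a dashed line at 1 TPM. Gpc3 stands above every other gene at 763 and 785 TPM, and Extl1, Hs6st3, Ndst4 and Has1 lie below 1 TPM in both libraries.

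The cell-surface core proteins were the most abundant role, with all 10 detected and a sum of 1228 ± 10.5 TPM (SD, n = 2). Glypicans are anchored to the membrane by a lipid, and syndecans span it. Gpc3, the glypican lost in Simpson-Golabi-Behmel overgrowth syndrome in humans, had 763 TPM in replicate 1 and 785 TPM in replicate 2, more than 99.4% of protein-coding genes. It made up 80.4% and 80.5% of all glypican TPM. The gene (ENSMUSG00000055653.9) lies on the minus strand of chromosome X at chrX:52272426-52613950 of mm10, and its neighbour Gpc4 lies 107 kb away with no protein-coding gene between them.

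Gpc4 had 58.4 and 62.8 TPM, Gpc1 49.4 and 48.6 TPM, and Gpc6 47.0 and 46.4 TPM, so that these 3 glypicans lay close together. Gpc2, best known from the developing nervous system, had 23.0 and 23.8 TPM. The lowest glypican, Gpc5, had 8.36 and 9.03 TPM. Gpc5 and Gpc6 are neighbours on chromosome 14, 400 kb apart with no protein-coding gene between them, yet Gpc6 was above Gpc5 in both libraries by 2.30 ± 0.08 on the log2(TPM + 1) scale (SD, n = 2).

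Sdc4, the syndecan of focal adhesions, was the highest of its family, at 132 and 120.5 TPM. Sdc2 had 69.5 and 64.1 TPM. Sdc1, the main syndecan of epithelia, had 52.0 and 53.8 TPM. Sdc3, known mainly from nerve and muscle, was the lowest, at 18.3 and 21.5 TPM. Against a single dominant glypican, the leading syndecan held 48.6% and 46.4% of the family's 272 and 260 TPM.

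The promoters of the highest and of the lowest listed gene for which RefSeq gives one are shown because both hold more CG dinucleotides than most windows in the table, at opposite ends of the range of levels. Each run is the 250 bases before the start on build GRCm38.p6, 5′ to 3′ on the gene's strand, with CG in capitals. The Gpc3 window is chrX:52613975-52614224 on the minus strand, and the window of Hs6st3, a 6-O-sulfotransferase gene at 0.16 and 0.09 TPM, is chr14:119138015-119138264 on the plus strand.
Gpc3: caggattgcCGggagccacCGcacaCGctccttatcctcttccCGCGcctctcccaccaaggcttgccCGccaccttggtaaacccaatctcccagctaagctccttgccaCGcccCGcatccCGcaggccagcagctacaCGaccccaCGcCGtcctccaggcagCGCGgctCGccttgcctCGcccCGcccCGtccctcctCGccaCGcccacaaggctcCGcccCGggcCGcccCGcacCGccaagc
Hs6st3: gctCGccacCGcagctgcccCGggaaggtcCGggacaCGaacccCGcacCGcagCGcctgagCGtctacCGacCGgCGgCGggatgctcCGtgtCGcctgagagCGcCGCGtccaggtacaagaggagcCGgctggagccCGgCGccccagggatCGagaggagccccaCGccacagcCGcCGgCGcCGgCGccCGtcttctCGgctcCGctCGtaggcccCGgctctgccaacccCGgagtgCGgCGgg

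The Gpc3 window held 25 CG, more than 89.3% of all windows, and the Hs6st3 window 36, more than 97.4%. A promoter entry was found for 33 of the 46 genes, in 37 windows, and 26 of these windows (70.3%) held 10 CG or more, beside 37.8% of all 32851 windows in the table. The range ran to 1 CG in a window of Ndst3 and 38 in that of B3galt6. This is a description of sequence, and no relation to expression was tested.

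All 5 enzymes of the linkage region were detected, with a sum of 93.1 and 96.5 TPM. The first step, transfer of xylose to the core protein, is shared by a pair of enzymes, of which Xylt2 had 16.7 and 18.2 TPM and Xylt1 had 1.37 and 1.63 TPM. Xylt2 was 2.88 ± 0.02 above Xylt1 on the log2(TPM + 1) scale (SD, n = 2), beyond the limit of 0.92 set by replicate error. B4galt7, which adds the first galactose, had 21.5 and 23.4 TPM, and B3galt6, which adds the second, had 14.8 and 14.2 TPM. B3gat3, which closes the linkage with glucuronic acid, was the highest at 38.8 and 39.1 TPM. The last 3 steps, each with a single listed enzyme, therefore all stood above 10 TPM in both libraries.

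Among the exostosins, Ext2 was far above its partner Ext1, with which it forms the chain polymerase. Ext2 had 89.3 and 98.5 TPM and Ext1 had 10.1 and 9.97 TPM, a difference of 3.10 ± 0.11 on the log2(TPM + 1) scale (SD, n = 2). Extl3, which starts the heparan sulfate chain, had 25.3 and 28.2 TPM. Extl2, which can end it at the linkage, had 16.3 and 16.1 TPM. Extl1 stayed below 1 TPM, at 0.27 and 0.44 TPM from 27 and 38 counts. All 10 pairs of exostosins differed beyond replicate error in both libraries, though Extl2 over Ext1 and Extl3 over Extl2 were no longer called when replicate error was taken at its 99th percentile.

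Replicate error was taken from genes of similar level, as the size of log2 ratio between the libraries that 95% of them did not exceed. It was 1.90-fold for genes with a mean of 1 to 3 TPM, 1.73-fold at 3 to 10, 1.29-fold at 10 to 30, 1.20-fold at 30 to 100 and 1.19-fold above 100 TPM. A pair of genes was called different where log2(TPM + 1) differed the same way in both libraries by more than the limit of the lower gene, with genes below 1 TPM held to the limit of the lowest level. By that rule 51 of 58 pairs within 10 families (87.9%) were called. Of all pairs among the 46 genes, 894 of 1035 (86.4%) were called, so pairs within families differed about as often as any 2 listed genes. The share was 78.0% over all pairs of protein-coding genes, which include the many genes below 1 TPM. Of the 7 pairs not called, 3 were among the hyaluronan synthases, 2 among the glypicans (Gpc4 with Gpc1, and Gpc1 with Gpc6), 1 was Sdc2 with Sdc1, and 1 was Lum with Bgn. In the order of all 46 genes, only 3 of the 45 steps to the next gene were called: Gpc3 over Dcn, Sdc4 over Ext2, and B3gat3 over Hs3st3b1.

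**Figure D2:**
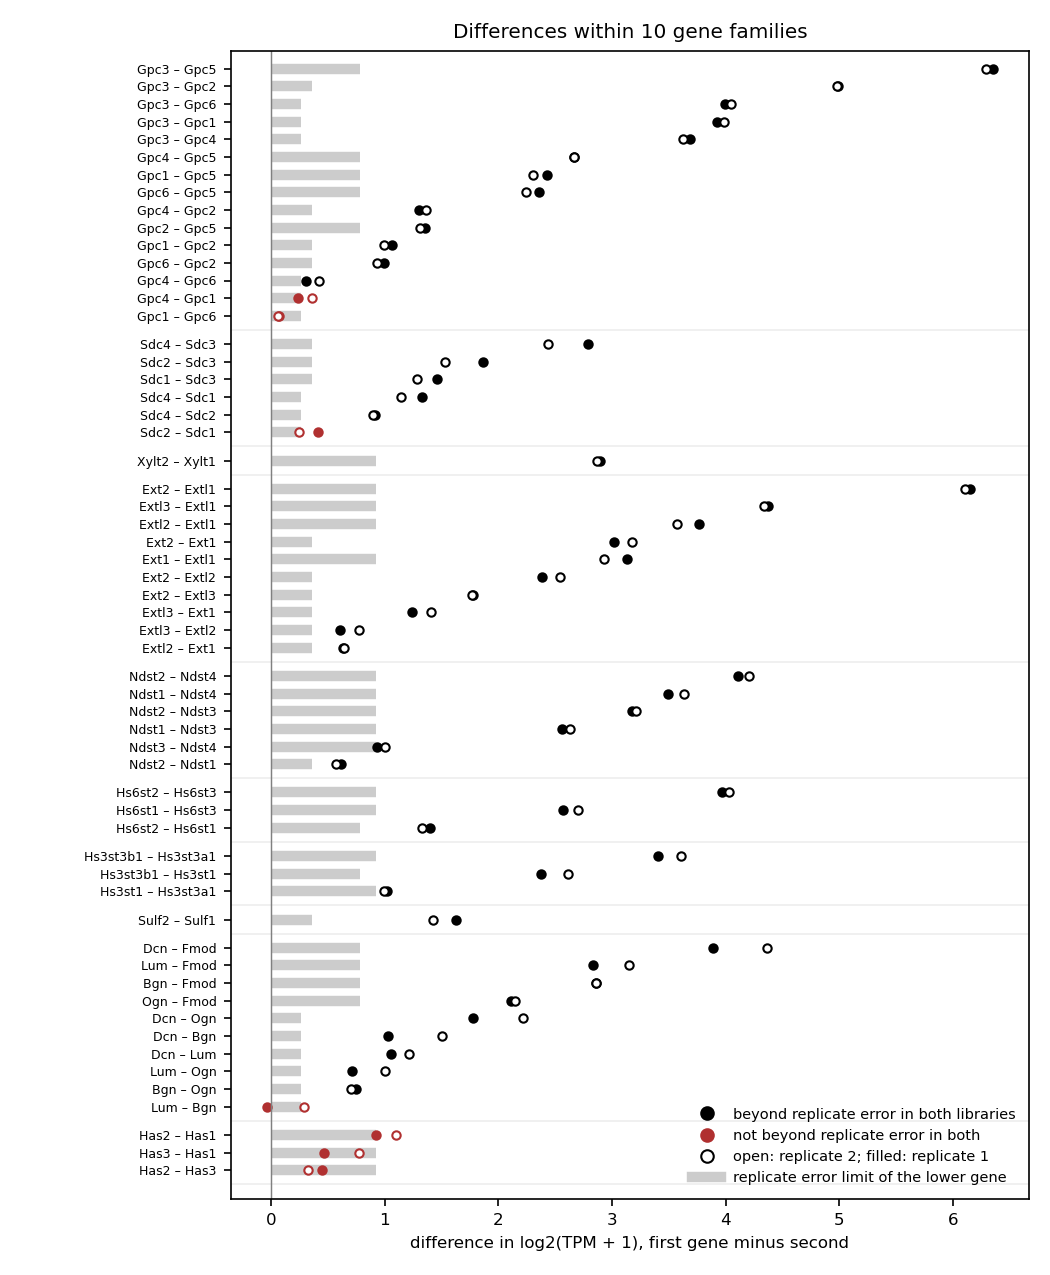
Difference in log2(TPM + 1) between the genes of each of 58 pairs within 10 families, the higher gene minus the lower, in replicate 1 (filled) and replicate 2 (open), with the replicate error limit of the lower gene as a grey bar. Black pairs lie beyond the limit in both libraries (51 pairs) and red pairs do not (7 pairs), among them all 3 pairs of hyaluronan synthases.

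The enzymes that edit the chain were lower and more spread, with 10 of 12 detected and a median of 8.39 and 8.31 TPM. N-deacetylation and N-sulfation, the step that opens the chain to further editing, is carried out by 4 Ndst enzymes. Ndst2 had 17.3 and 17.9 TPM and Ndst1 had 10.9 and 11.6 TPM. Ndst3 sat at the detection threshold, with 1.02 and 1.04 TPM. Ndst4 had 3 counts in replicate 1 (exact Poisson interval 0.619 to 8.77) and 2 counts in replicate 2 (0.242 to 7.22), or 0.06 and 0.02 TPM. All 6 pairs of Ndst genes were called, Ndst3 over Ndst4 by the narrowest margin, at 0.930 in replicate 1 and 1.00 in replicate 2 against a limit of 0.922. That call ended with FPKM, with no filter on low values and at the 99th percentile of replicate error, and the call of Ndst2 over Ndst1 ended with FPKM and at the 99th percentile.

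Glce, the epimerase that turns glucuronic into iduronic acid, had 15.5 and 16.4 TPM. Hs2st1, the only 2-O-sulfotransferase, had 11.5 and 10.5 TPM. Of the 6-O-sulfotransferases, Hs6st2 had 17.2 and 16.8 TPM and Hs6st1 had 5.88 and 6.08 TPM. Hs6st3 had 5 and 3 counts in all. Hs6st2 was thus the highest of the 3, above Hs6st1 by 1.37 ± 0.05 on the log2(TPM + 1) scale (SD, n = 2), a call that ended at the 99th percentile of replicate error. Gm37335, an antisense gene with 9.30 and 9.38 TPM, overlaps Hs6st1 over 8.07% of its exon bases, so the level of Hs6st1 is less certain.

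The 3-O-sulfotransferases place the rarest sulfate. Hs3st3b1 was the highest of the chain-modifying enzymes, at 28.3 and 26.9 TPM. Hs3st1, the enzyme known for making the antithrombin-binding site, had 4.64 and 3.56 TPM. Hs3st3a1 had 1.77 and 1.29 TPM. The difference between Hs3st3b1 and Hs3st3a1 was 3.51 ± 0.14 on the log2(TPM + 1) scale (SD, n = 2).

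Hs3st3a1 and Hs3st3b1 share a long run of identical sequence, which bears on their separation. They lie on chromosome 11 on opposite strands, 513 kb apart with 1 protein-coding gene between them. Their coding sequences, stop codons left out, align without gaps over 1170 bases with 866 identical (74.0%), and 401 of these form 1 unbroken identical run. The stretches below, from the M21 transcripts on the genes' own strands, show the end of that run, with the bases that differ between the copies in capitals. The first is chr11:64520651-64520770 on the plus strand and the second chr11:63889173-63889292 on the minus strand, both in coding sequence of an exon.
Hs3st3a1: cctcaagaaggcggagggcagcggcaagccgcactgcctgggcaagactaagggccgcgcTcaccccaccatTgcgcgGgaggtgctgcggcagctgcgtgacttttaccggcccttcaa
Hs3st3b1: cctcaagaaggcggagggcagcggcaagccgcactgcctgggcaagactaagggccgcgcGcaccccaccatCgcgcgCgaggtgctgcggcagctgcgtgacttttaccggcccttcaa

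The copies differ at 3 of these 120 positions. The stretch was chosen at the end of the run, and over whole transcripts 302 of the 3840 windows of 100 bases in Hs3st3a1-201 (7.86%) also occur in Hs3st3b1-201. None of the other 57 family pairs shared such a window. The expected counts of both genes were not whole numbers, the mark of reads shared out between features. In all, 8 of the 46 genes had this mark, with Gpc2, Sdc3, B4galt7, Hs6st1, Sulf2 and Has3 besides, so it is not particular to these copies. The counts were 166.8 and 130.2 for Hs3st3a1 and 3339 and 3415 for Hs3st3b1. The level of Hs3st3a1 is uncertain to the extent that shared reads were split wrongly. Hs3st3a1 also overlaps the antisense gene F930015N05Rik over 32.9% of its exon bases, and strand use in counting is not given in the sources used here.

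Enzymes that act on finished chains were all 3 detected. Sulf2, an extracellular 6-O-endosulfatase, had 53.0 and 59.6 TPM, and its relative Sulf1 had 16.5 and 21.5 TPM. Sulf2 was above Sulf1 by 1.53 ± 0.14 on the log2(TPM + 1) scale (SD, n = 2). Hpse, the heparanase that cuts the chain, was low at 2.67 and 3.39 TPM.

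The 6 matrix proteoglycans were all detected, with a sum of 419 and 520 TPM. Dcn, decorin, which binds collagen fibrils, led with 155 and 227 TPM. Lum, lumican, another collagen binder, had 73.8 and 97.0 TPM. Bgn, biglycan, had 75.5 and 79.0 TPM. Ogn, osteoglycin, had 44.6 and 48.0 TPM, and Fmod, fibromodulin, had 9.52 and 10.0 TPM. Vcan, versican, the large chondroitin sulfate proteoglycan that binds hyaluronan, had 60.2 and 59.1 TPM. Dcn and Lum lie 47 kb apart on chromosome 10 in the same direction, with no protein-coding gene between them.

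The hyaluronan genes were the lowest role, apart from 1 receptor. Has2, the synthase needed for heart development in mice, had 1.67 and 1.79 TPM. Has3 had 0.95 and 1.23 TPM, on both sides of the threshold, and Has1 had 0.41 and 0.30 TPM from 20 and 16 counts. No pair of synthases was called different by the rule on log2(TPM + 1), in which the added 1 shrinks differences between genes this low. Has2 over Has1 missed the limit of 0.9223 narrowly in replicate 1, at 0.9211, and passed it in replicate 2, at 1.102. In plain TPM, Has2 was 4.07-fold and 5.97-fold above Has1. Has3 overlaps Chtf8 on the other strand over 5.52% of its exon bases, and Chtf8 had 82.4 and 100.1 TPM, so the low count of Has3 is uncertain. Has2 overlaps Has2os on the other strand over 4.3%, and Has2os had 1.47 and 2.25 TPM, so the count of Has2 is uncertain too. Cd44, the hyaluronan receptor, had 4.35 and 4.41 TPM. Hmmr, whose product binds hyaluronan and also the mitotic spindle, had 39.6 and 38.96 TPM, or 84.3% and 83.4% of the summed TPM of this role. The 5 markers of dividing cells summed to 1148 and 1091 TPM in the same libraries, and their part in the level of Hmmr was not tested.

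Between the pools, no gene of the list reached a 1.5-fold TPM ratio among the 42 with a mean expected count of at least 100, beside 3.01% of 12783 protein-coding genes. The median absolute log2 ratio of the 41 detected genes was 0.09, beside 0.10 over all detected protein-coding genes. By 25% or more, 7 of the 42 differed, beside 9.62% of all protein-coding genes tested. Hs3st1 and Hs3st3a1 were the 2 higher in replicate 1, and Dcn, Lum, Sulf1, Hpse and Has3 were the 5 higher in replicate 2. Dcn, Lum and Sulf1 were the 3 of 41 detected genes beyond the replicate error limit of their level. By definition 95% of all genes at a level do not exceed that limit, so a small share of any list is likely to pass it.

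Dcn had a TPM ratio of 0.685, replicate 1 over replicate 2, and a ratio of counts, each over its library total, between 0.666 and 0.707 (exact Clopper-Pearson 95% interval, counting error only). Lum had a TPM ratio of 0.761 (count ratio 0.731 to 0.796). Sulf1 had a TPM ratio of 0.767 and a count ratio of 0.719 (0.675 to 0.766), so its TPM ratio lay just outside the interval of its count ratio. The other 3 small leucine-rich proteoglycans were nearer to 1, at 0.956 for Bgn, 0.950 for Fmod and 0.931 for Ogn. Beside these values, the 6 interstitial stroma genes summed to 1805 and 2111 TPM, the 5 smooth muscle genes to 287 and 569 TPM, and the 5 liver genes to 211 and 416 TPM. All 6 stroma genes were higher in replicate 2, but the rise in their sum was mostly that of Col3a1, at 727 and 1008 TPM. Col1a1, the other large part of that sum, had 902 and 908 TPM. The 4 adrenal cortex genes summed to 36.8 and 122 TPM, and the 5 genes of chromaffin cells and sympathetic neurons to 27.6 and 120.4 TPM. Going the other way, the 5 tendon and dense connective tissue genes summed to 47.3 and 39.8 TPM and the 6 skeletal muscle genes to 363 and 201 TPM. The part of these tissues in the differences of Dcn, Lum and Sulf1 was not tested.

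**Figure D3:**
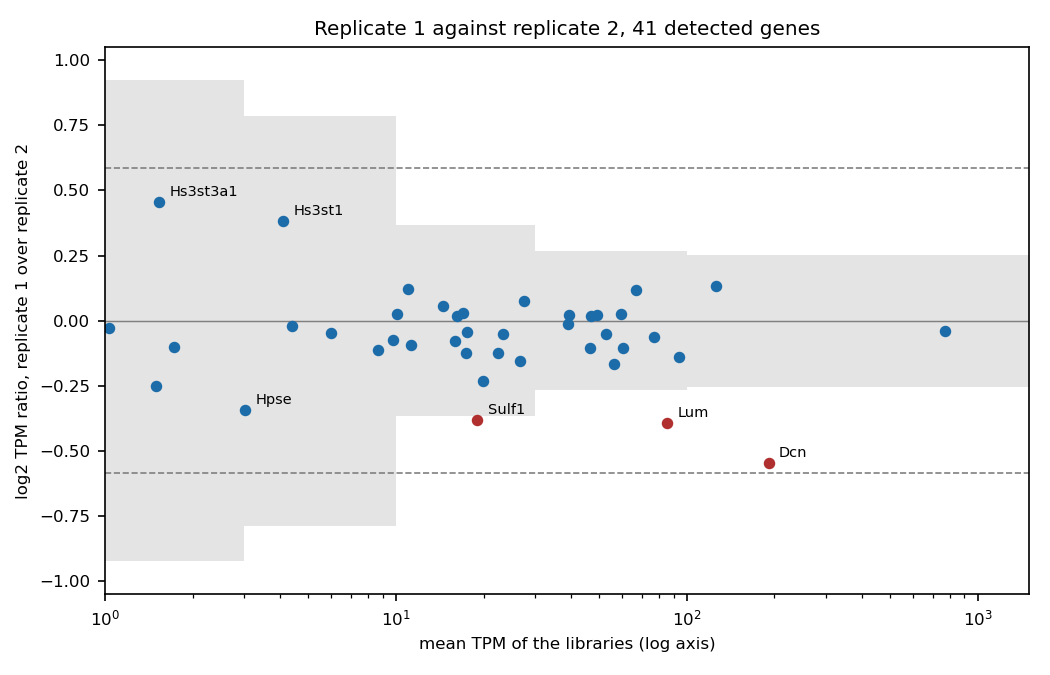
log2 TPM ratio of replicate 1 over replicate 2 against mean TPM (log axis) for the 41 detected genes, with the replicate error limits as a grey band and dashed lines at a 1.5-fold ratio. Dcn, Lum and Sulf1 (red) fall below the band, Gpc3 lies near 0 at the far right, and every point stays within the dashed lines.

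Transcript estimates were read for each gene as the share of its TPM held by each annotated transcript. The tables held 174 transcripts of the 46 genes, all matched by identifier in M21, 150 with the same length there. Of the 41 detected genes, 39 (95.1%) had a protein-coding leading transcript in both libraries, beside 92.0% of detected protein-coding genes. Of the 30 with several transcripts, 28 (93.3%) had the same leading transcript in both libraries, beside 91.9%. In 12 of the 30 the leading transcript held over 90% in both libraries, with no share over all genes at hand to set beside it. The exceptions are described next, because the transcript estimate changes what the gene's level stands for.

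**Figure D4:**
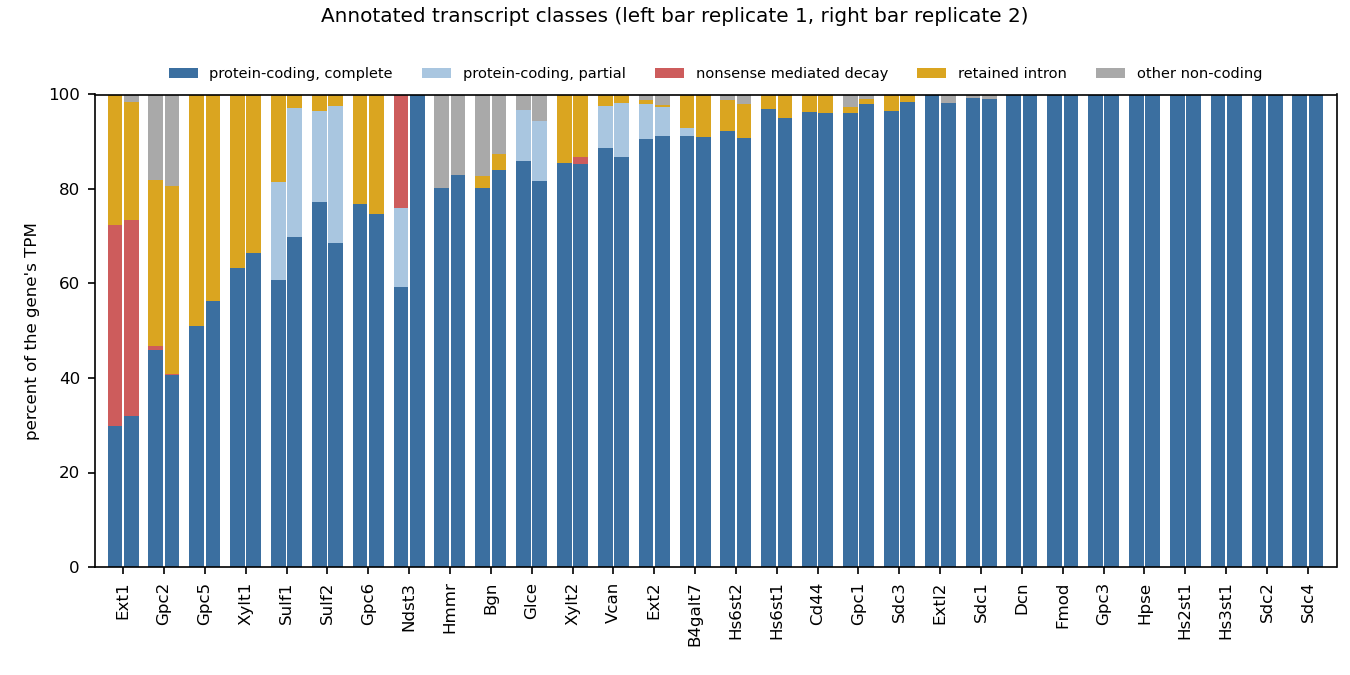
Percent of each gene's TPM in 5 annotated transcript classes, for the 30 detected genes with several transcripts (left bar replicate 1, right bar replicate 2). Ext1, Gpc2 and Gpc5 at the left have the smallest shares in complete protein-coding transcripts, and 8 genes at the right are wholly protein-coding.

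In Ext1 most of the TPM lay outside the coding transcript. Ext1-201, the only transcript in the tables with the full coding sequence, held 29.9% and 31.9%, or 3.03 and 3.18 TPM. Ext1-203, annotated as a target of nonsense-mediated decay, held 42.5% and 41.6%, and the retained-intron transcript Ext1-204 held 27.6% and 24.9%. By expected count, the order differed, with 562 and 634 counts for Ext1-201, which is 7663 bases long, and 153 and 159 for Ext1-203, which is 1554 bases long. Counting only complete coding transcripts, Ext1 had 3.10 ± 0.11 TPM (SD, n = 2), while Ext2-201, the leading coding transcript of Ext2, had 81.0 and 89.7 TPM.

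Of the 41 detected genes, 5 had over 30% of their TPM outside complete coding transcripts in both libraries: Ext1, the glypicans Gpc2 and Gpc5, the xylosyltransferase Xylt1 and the sulfatase Sulf1. No share over all protein-coding genes is at hand for this measure, so the count is not read as a trait of the list. Gpc2-205, which is coding, led Gpc2 with 44.5% and 40.7%, and the retained-intron transcript Gpc2-207 held 29.2% and 32.7%. In M21 another gene, Gm43720, overlaps Gpc2 over 55.6% of its exon bases on the same strand. For Gpc5 the leading transcript was itself a retained-intron form, Gpc5-204, with 48.9% and 43.7%, leaving 4.68 ± 0.58 TPM in complete coding transcripts (SD, n = 2). Xylt1 had 36.8% and 33.5% in retained-intron transcripts. Sulf1 had 60.7% and 69.9% in complete coding transcripts and 20.8% and 27.4% in partial ones. Counting partial transcripts as coding, 4 genes (Ext1, Gpc2, Gpc5 and Xylt1) had under 75% of their TPM in protein-coding transcripts in both libraries, beside 18.1% of detected protein-coding genes.

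For 6 of the 10 genes with several complete coding transcripts at 5% or more, those transcripts carried 1 coding sequence and differed outside it. Sulf2 was such a case: Sulf2-201 led in replicate 1 (44.0%, against 33.8% in replicate 2) and Sulf2-202 led in replicate 2 (34.9%, against 33.2% in replicate 1), but they share 1 coding sequence that held 77.2% and 68.7%. Sulf2-207, which carries the same coding sequence in M21, was too short to hold it in the deposited table and is counted as partial. Sulf1 likewise had 3 transcripts of 1 coding sequence with 59.7% and 69.2% in all, led by Sulf1-202 with 49.6% and 38.7%. Gpc6-201 (41.5% and 44.1%) and Gpc6-202 (34.9% and 30.2%) also encode 1 sequence, while the retained-intron form Gpc6-203 held 23.3% and 25.2%. The length of Gpc6-201 was 6750 bases in the deposited table and 1668 in M21, so its share rests on the older model. The 4 genes with more than 1 coding form at 5% or more were Vcan, Cd44, Gpc5 and Hs6st2. Forms below 5% were not counted, among them Gpc3-202, with 3.57% and 4.08% of Gpc3. Because Gpc3 is so high, that share was still 27.3 and 32.0 TPM. Gpc3-202 has a coding sequence of 1290 bases, against 1737 in the leading Gpc3-201.

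Vcan is spliced into forms that carry both, 1 or neither of a pair of large exons to which chondroitin sulfate is attached. The alpha exon is exon 7 of Vcan-203 and the beta exon is exon 8. The junctions that tell the forms apart are shown as 20 bases on each side, with the bases after the junction in capitals, from the minus strand of chromosome 13. Exon 6 ends at chr13:89712205-89712224 and exon 7 at chr13:89702918-89702937, and exon 7 begins at chr13:89705778-89705797, exon 8 at chr13:89693482-89693501 and exon 9 at chr13:89685173-89685192.
V0, exon 6 to exon 7: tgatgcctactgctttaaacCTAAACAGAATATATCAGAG
V0, exon 7 to exon 8: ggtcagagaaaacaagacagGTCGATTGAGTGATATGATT
V1, exon 6 to exon 8: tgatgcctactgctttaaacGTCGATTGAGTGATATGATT
V2, exon 7 to exon 9: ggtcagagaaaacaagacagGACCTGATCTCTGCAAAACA
V3, exon 6 to exon 9: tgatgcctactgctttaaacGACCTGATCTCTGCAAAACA

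V0, with both exons (Vcan-203), had 23.0 and 23.0 TPM, or 38.2% and 38.9% of the gene. V3, with neither (Vcan-201), had 19.1 and 15.9 TPM. V1, with the beta exon alone (Vcan-206), had 9.71 and 11.4 TPM. V2, with the alpha exon alone (Vcan-202), was listed at 0 TPM in both libraries. Forms that carry the beta exon therefore made up more than V3 in both libraries. The annotated forms also differ outside the coding sequence, where V0 has 2365 bases in all, V1 has 1150 and V3 has 356. The tables do not show how many reads cross each junction.

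Cd44 has a block of variable exons in the part outside the cell. The standard form, Cd44-203, joins exon 5 past all of them, and Cd44-207 includes 5 of them. The junctions differ as follows, from the minus strand of chromosome 2, with the bases after the junction in capitals. Both begin at chr2:102853015-102853034, and they go on at chr2:102828591-102828610 in the standard form and at chr2:102842358-102842377 in the variable form.
Standard form: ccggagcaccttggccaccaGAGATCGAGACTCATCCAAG
Variable form: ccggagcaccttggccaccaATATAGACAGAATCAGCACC

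Cd44-203 had 2.15 and 1.55 TPM and Cd44-207 had 1.86 and 2.58 TPM, so the leading form changed from 1 library to the other. With 145 and 113 counts for Cd44-203 and 225 and 337 for Cd44-207, the split between them is not settled at this depth. Cd44-207 had the larger expected count in both libraries.

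**Figure D5:**
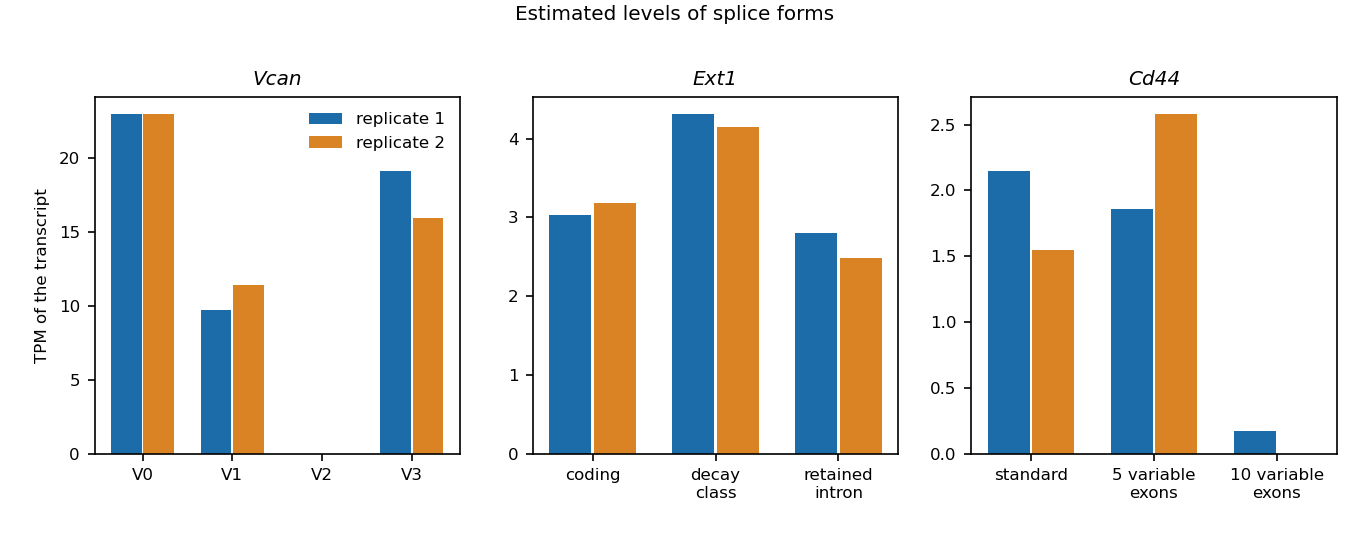
TPM of splice forms of Vcan, Ext1 and Cd44 in replicate 1 (blue) and replicate 2 (orange), as estimated per transcript by the authors. V2 of Vcan is at 0 in both libraries, the decay form of Ext1 is above its coding form in both, and the leading form of Cd44 differs between the libraries.

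Other genes of the same pathways were counted from 7 lists of 65 genes in all, of which 52 (80.0%) reached 1 TPM in both libraries and 10 stayed below it in both. Among other genes of heparan sulfate synthesis, the highest was Fam20b, a xylose kinase of the linkage region, at 27.4 and 25.9 TPM. Of the 3-O-sulfotransferases outside the main list, Hs3st6 had 22.82 and 20.55 TPM, above Hs3st1 and Hs3st3a1 and below Hs3st3b1 in both libraries. Hs3st2, Hs3st4 and Hs3st5 stayed below 1 TPM in both libraries, with at most 0.49 and 0.84 TPM (Hs3st2). All 3 core proteins of basement membranes were detected, led by Col18a1, collagen XVIII, with 156 and 165 TPM.

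The supply of sugar and sulfate precursors was detected throughout, with 8 of 8 genes and Ugdh, which makes UDP-glucuronic acid, at 83.5 and 77.4 TPM. The chondroitin and dermatan sulfate enzymes were all 16 detected, with Chpf highest at 29.3 and 33.0 TPM. The 8 lysosomal enzymes of heparan sulfate breakdown were detected too, led by Gusb, beta-glucuronidase, at 43.8 and 44.8 TPM. Of 11 genes for hyaluronan breakdown and binding, 10 were detected, led by the hyaluronidase Hyal2 at 90.9 and 94.99 TPM, and Cemip, another hyaluronan-degrading gene, had 0.25 and 0.24 TPM. Hyal2 thus stood far above the synthases Has1, Has2 and Has3 in both libraries. The last list had 13 genes, other proteoglycan core proteins and also Hpse2, a relative of Hpse that is not a core protein and was not detected. Of the 13, 4 were detected, of which Aspn, asporin, had the highest mean, from 19.1 and 14.6 TPM. Tgfbr3 stood above Aspn in replicate 2 at 15.8 TPM. Another 6 were below 1 TPM in both libraries (Acan, Bcan, Ncan, Kera, Epyc and Podn).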

How the data were processed

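Total RNA from 2 pools of embryonic kidney was extracted with mirVana, with a stated size range above 200, per the labels. Reads were quantified on mm10 with GENCODE M4, per the text files deposited with the tables. The sources used here do not give the aligner, the quantifier or strand use. The deposited expected counts are estimated and need not be whole, and they were rounded for TMM and DESeq2 factors. The deposited TPM values are scaled per library and the deposited FPKM values served as an alternative. Transcript shares are the authors' deposited percent column.

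Names, classes and exons were looked up by identifier, without version, in GENCODE M21 (GRCm38), and promoters are RefSeq's. A transcript was called complete only where its deposited length could hold the annotated coding sequence. The genes, lists and rules were chosen with earlier results of these data known. All 46 genes are named. Of other pathway genes, the highest of each list and those below 1 TPM in both libraries are named, as are Hs3st6, Tgfbr3 and Hpse2. Of marker lists the sums are given, with values of Col1a1 and Col3a1 besides. Transcripts are named where the leading one differed, held under 50% in both libraries or was not coding, and for Vcan and Cd44. Xylt1, Ext2, Gpc3 and Hs3st3 transcripts were chosen after their values were seen. Counts were held whole within 0.005. Intervals are at 95% and cover counting error only, because PCR copies could not be told from separate molecules. Tools were Python 3.11.15, scipy 1.17.1, edgeR 4.0.16 and DESeq2 1.42.0.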

Additional observations from a re-analysis of the deposited data

How the results depend on the processing

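The count of 41 genes detected lay between 34 (5 TPM) and 42 (0.5 TPM, CPM with TMM factors, or posterior mean TPM) over the alternatives, with 38 by FPKM. Replicate 1 alone gave 41 and replicate 2 alone gave 42. The 51 family pairs called lay between 43 (99th percentile of replicate error) and 54 (without replicate 1), and no called pair changed direction under any of the 7 alternatives. At the 99th percentile the calls that ended were Gpc2 over Gpc5, Gpc4 over Gpc6, Extl2 over Ext1, Extl3 over Extl2, Ndst2 over Ndst1, Ndst3 over Ndst4, Hs6st2 over Hs6st1 and Hs3st1 over Hs3st3a1. FPKM ended both Ndst calls, and no filter ended Ndst3 over Ndst4 and Hs3st1 over Hs3st3a1. With 0.1 in place of 1 added to TPM, 53 pairs were called, and the 2 gained were Has2 over Has1 and Has3 over Has1. With CPM per kb of the longest transcript, Dcn was no longer called above Bgn or Lum, nor Gpc4 above Gpc6. No gene reached a 1.5-fold ratio under TMM, DESeq2 size factors or rescaled TPM, whereas 7 genes differed by 25% or more, 1 gene (Extl1) reached 1.5-fold with a minimum mean count of 20, and 3 (Extl1, Hs6st3 and Ndst4) did with no minimum. The 39 genes with a coding leading transcript were also 39 by expected counts, where Ext1 became coding and Gpc2 turned to its retained-intron form, and 32 at 5 TPM or more, from 34 genes. The summed level was 0.266% of protein-coding TPM and 0.427% of protein-coding expected counts, a measure that is not corrected for length. Depth limits the genes below 1 TPM most, since 5 or fewer counts stand behind Hs6st3 and Ndst4 in each library. No paired analysis was possible because there is only 1 group.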

Other observations

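Several of the listed genes lie near each other. Hs6st2 lies on chromosome X with Gpc3 and Gpc4, 591 kb from Gpc3 and 371 kb from Gpc4, and the 3 genes are on the same strand. Their levels were 17.2 and 16.8 TPM for Hs6st2, 763 and 785 TPM for Gpc3, and 58.4 and 62.8 TPM for Gpc4. Hs6st3 lies 1162 kb from Gpc6 on chromosome 14, with 10 protein-coding genes between them, at 0.16 and 0.09 TPM beside 47.0 and 46.4 TPM for Gpc6.

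The gene pairs in which 1 enzyme step has a high and a low member are Xylt2 over Xylt1, Hs6st2 over Hs6st3, Ndst2 over Ndst4 and Hs3st3b1 over Hs3st3a1. Their differences in log2(TPM + 1) were 2.88, 4.00, 4.16 and 3.51. The pairs were picked after their values were seen, and no explanation was tested.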
